A study of Mus musculus with 4 samples.

Results

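Rab GTPases are the small GTP-binding proteins that give each membrane compartment of a cell its identity and direct vesicles between compartments. The family was measured here in 4T1-A and 4T1-S, which are sub-lines of 4T1, a mouse mammary carcinoma cell line. Its members were chosen by gene name: every spot other than controls whose gene name on the array was Rab followed by a number and at most a letter and a digit, so that effector genes with longer names were left out. This gave 55 genes, represented by 103 probes on 112 spots, out of 27962 gene names, 41174 probes and 43379 spots on each array. The family was proposed with the results of this comparison known, so its counts and differences are given as a description and nothing is read from them about the family as a whole.

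Total RNA of each sub-line was labelled with Cy3 and hybridised to 2 one-colour Agilent arrays. Both sub-lines carry the parental line 4T1 in their labels, and the title of the series calls 4T1-S highly immunogenic. No treatment, genotype, age or time is given for either group, and 4T1-A stands as the group of comparison. Whether replicate arrays stem from different cultures is not given in the labels, so the spread between them may be technical.

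Between 54.9 and 59.2 percent of the spots of an array were well above background. Replicate arrays correlated across genes, which are not independent replicates, at r = 0.992 in 4T1-A and 0.993 in 4T1-S. All 4 arrays lay on 1 slide, with the sub-lines at different positions, so position and sub-line cannot be told apart. Of the 7 epithelial marker genes found by name, all 7 were above background on every array. The keratins Krt8, Krt18 and Krt7, which mark simple epithelium, had log2 differences of -0.19, -0.14 and -0.20 and were not called, whereas Cdh1 (-1.11), Cldn4 (-2.65), Cldn7 (-2.82) and Krt19 (-2.61) were lower in 4T1-S. Summed over the list, the epithelial signal was 338 and 351 times the 75th percentile on the 4T1-A arrays and 310 and 254 times on those of 4T1-S. Most of this sum was Krt8, Krt18 and Krt7, at 139, 86.0 and 77.9 on 4T1-A replicate 1, so it says little of the other markers.

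A Rab protein is inserted into a membrane through lipid tails, is switched on there by an exchange factor that loads GTP, recruits effectors such as tethers and motor proteins, and is switched off by a GTPase-activating protein before a carrier returns it to the cytosol. Early compartments of secretion, early endosomes, recycling endosomes, lysosomes and secretory granules each carry their own members. In epithelia, members of the Rab11 subfamily and their myosin V motors are best known for delivering cargo to the apical surface.

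Levels are given as the processed spot signal divided by the 75th percentile of that array, so a level of 1 means that the spot was as bright as the 75th percentile. Where a gene had several probes, the one with the highest mean level stands for it. Differences are on the log2 scale, as 4T1-S minus 4T1-A, with the standard error (SE) of a limma fit over all genes and n = 2 arrays per sub-line. A gene was tested where both arrays of 4T1-A, or both of 4T1-S, showed its probe well above background, and it was called at an adjusted p under 0.05, with Benjamini-Hochberg adjustment over all 16275 genes tested.

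Of the 55 Rab genes, 47 were tested, 43 of them above background on all 4 arrays and 4 on some. Limma called 5, and 42 did not pass. Rab30 and Rab6b were higher in 4T1-S, and Rab25, Rab19 and Rab15 were lower. Over all genes, 6.87% were called, 3.86% as higher and 3.01% as lower. The median difference of the tested Rab genes was 0.01, and that of all genes tested was 0.13. The split of calls moved with the scaling of the arrays. Over all genes it was 628 higher and 490 lower as given, 189 and 887 when arrays were scaled to their median, 267 and 471 after quantile normalization, and 250 and 540 after cyclic loess. For the Rab genes it was 0 and 3 with scaling to the median, and 1 and 3 with each of the other 2. Scaling to the median also moved the median difference of all genes to -0.16 and that of the Rab genes to -0.28, and small differences are to be read against it. In whole-line RNA such as this, fewer cells with a transcript and less of the transcript per cell cannot be told apart.

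**Figure D1:**
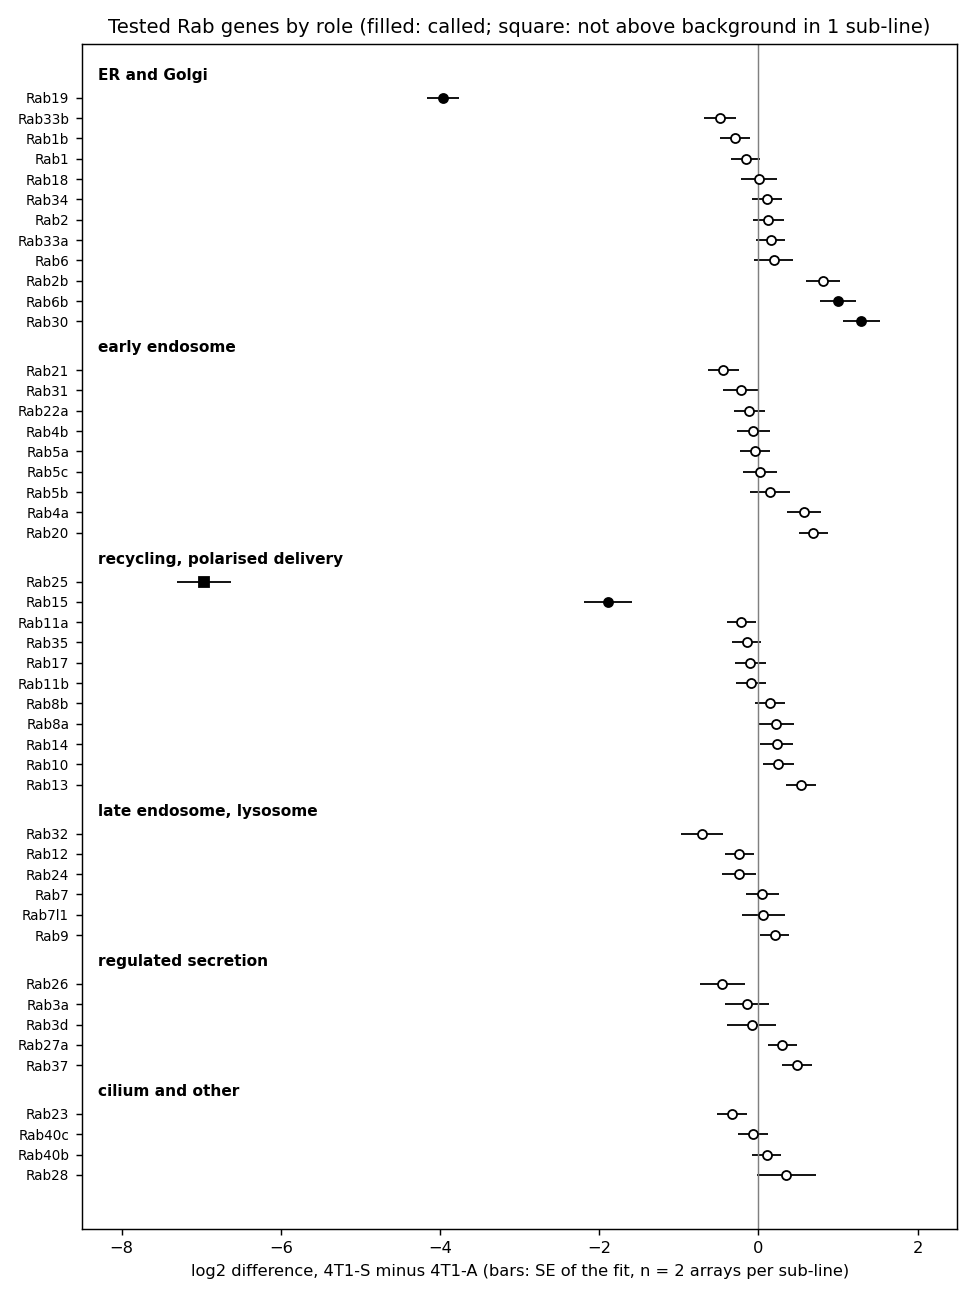
Each row is 1 of the 47 tested Rab genes, grouped by role, and the horizontal axis is the log2 difference, 4T1-S minus 4T1-A. Points are the differences, bars the SE of the fit with n = 2 arrays per sub-line, filled points the 5 genes called, and the square Rab25, which was not above background in 4T1-S, so that its place shows the measured values and not a bound. Rab25 at -6.96 and Rab19 at -3.97 lie far from the other rows, and the 42 genes not called lie between -0.71 and 0.81.

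The promoter windows of both genes with the largest falls, Rab25 and Rab19, and of Rab6b, a gene that was higher, are printed so that their sequence can be set beside the measured levels. Each window runs from 250 bases before to 50 bases after the transcription start in RefSeq's annotation of GRCm38.p6, is 300 bases long, and reads 5′ to 3′ along the gene. Where several starts were listed for a gene, the most upstream one was used. Capitals mark CG dinucleotides. The window of Rab25 is chr3:88548230-88548529 on the minus strand, that of Rab19 is chr6:39381103-39381402 on the plus strand, and that of Rab6b is chr9:103111824-103112123 on the plus strand.
Rab25: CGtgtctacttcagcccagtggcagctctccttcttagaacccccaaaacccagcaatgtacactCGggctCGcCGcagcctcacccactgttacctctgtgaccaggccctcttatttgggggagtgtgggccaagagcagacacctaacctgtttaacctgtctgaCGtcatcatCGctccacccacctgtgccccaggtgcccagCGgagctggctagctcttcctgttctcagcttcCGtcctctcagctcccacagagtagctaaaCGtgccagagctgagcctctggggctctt
Rab19: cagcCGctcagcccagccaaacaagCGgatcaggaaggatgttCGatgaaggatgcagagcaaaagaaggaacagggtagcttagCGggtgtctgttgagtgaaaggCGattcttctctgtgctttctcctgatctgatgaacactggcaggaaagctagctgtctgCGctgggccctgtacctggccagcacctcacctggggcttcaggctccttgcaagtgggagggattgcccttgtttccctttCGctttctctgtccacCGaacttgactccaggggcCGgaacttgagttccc
Rab6b: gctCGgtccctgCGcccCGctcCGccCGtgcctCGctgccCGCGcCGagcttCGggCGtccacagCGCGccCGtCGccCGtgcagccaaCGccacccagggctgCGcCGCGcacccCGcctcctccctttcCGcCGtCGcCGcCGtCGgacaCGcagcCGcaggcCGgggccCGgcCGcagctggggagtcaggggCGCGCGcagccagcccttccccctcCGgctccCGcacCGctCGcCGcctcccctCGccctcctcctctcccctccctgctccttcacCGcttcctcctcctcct

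The window of Rab25 held 9 CG dinucleotides, and that of Rab19 also held 9. The window of Rab6b held 42, and that of Rab15, for which 4 starts were listed, held 38. Rab30, the other gene called higher, had no window, so Rab6b is the only called rise here. The tested genes Rab2, Rab4a, Rab18, Rab26 and Rab37 had none either. Among 41 tested Rab genes with a promoter in the table the median was 23, and among the promoters of all 27025 genes in it the median was 7. The 41 had passed the filter on background, whereas the 27025 were not filtered, so these sets are unlike. Among all 46 Rab genes with a promoter there, tested or not, the median was 21.5. The part of the filter in this contrast was not tested. Windows with 10 or fewer made up 14.6% of the tested Rab genes, 6 genes in all, and 58.1% of all genes. Besides Rab25 and Rab19, these 6 were Rab9, Rab17, Rab32 and Rab33a, and these 4 were not called. The letters CACCTG, read on both strands and so also as CAGGTG, occurred 2 times in the window of Rab25 and 1 time in that of Rab19. They were found in 8 of the 41 Rab windows (19.5%) and in 20.0% of all windows. The letters GGGCGG, on both strands, were found in 28 of the 41 Rab windows (68.3%) and in 35.9% of all windows. They were absent from the windows of Rab25 and Rab19, and occurred 1 time in that of Rab6b. A match is only a match of letters in this window.

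Among the 11 tested genes of recycling and polarised delivery, 0 were called higher and 2 lower, and their median difference was -0.09. Rab25, the Rab11 relative found mainly in epithelia, was at 2.16 and 2.73 on the 4T1-A arrays and at 0.0134 and 0.0284 on the 4T1-S arrays. Both 4T1-S values were not well above background, and 1 of them is a surrogate that the scanner software put in place of a low signal. The difference was -6.96 ± 0.34. Since the 4T1-S level is only a bound, the fall of Rab25 in 4T1-S is given as at least 42.4-fold lower. This bound sets the 4T1-A mean against the mean of the lowest signals that were still well above background on the 4T1-S arrays. Over other settings of the processing the difference ran from -7.50 to -3.61, and the smallest of these falls is under the bound.

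Rab15, which acts in endocytic recycling, was at 0.287 and 0.182 in 4T1-A and at 0.0485 and 0.0783 in 4T1-S. It was well above background on 1 of the 2 4T1-S arrays. The difference was -1.89 ± 0.30, and the groups of arrays did not overlap. The call of Rab15 was lost without 4T1-S replicate 1 (-1.54), and with another background correction, normexp, the difference was -0.64 and was not called. It was also not called with no filter on background, when more genes are tested. Normexp was run with an offset of 50 added to every signal, beside 75th percentiles of 405 to 577. This offset by itself shrinks the log2 differences of dim genes such as Rab15.

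Rab11a and Rab11b, the widely expressed members of the subfamily to which Rab25 belongs, were not called. Rab11a was at 19.8 and 20.5 in 4T1-A and at 17.4 on both arrays of 4T1-S, a difference of -0.21 ± 0.18. Rab11b was at 13.6 and 11.5 in 4T1-A and at 11.9 and 11.5 in 4T1-S, a difference of -0.09 ± 0.19. The arrays of Rab11a did not overlap and those of Rab11b did. Rab17, another epithelial Rab with a role in transcytosis, was near the limit of detection throughout, at 0.0661 and 0.0766 in 4T1-A and at 0.0609 and 0.0720 in 4T1-S (-0.10 ± 0.20).

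**Figure D2:**
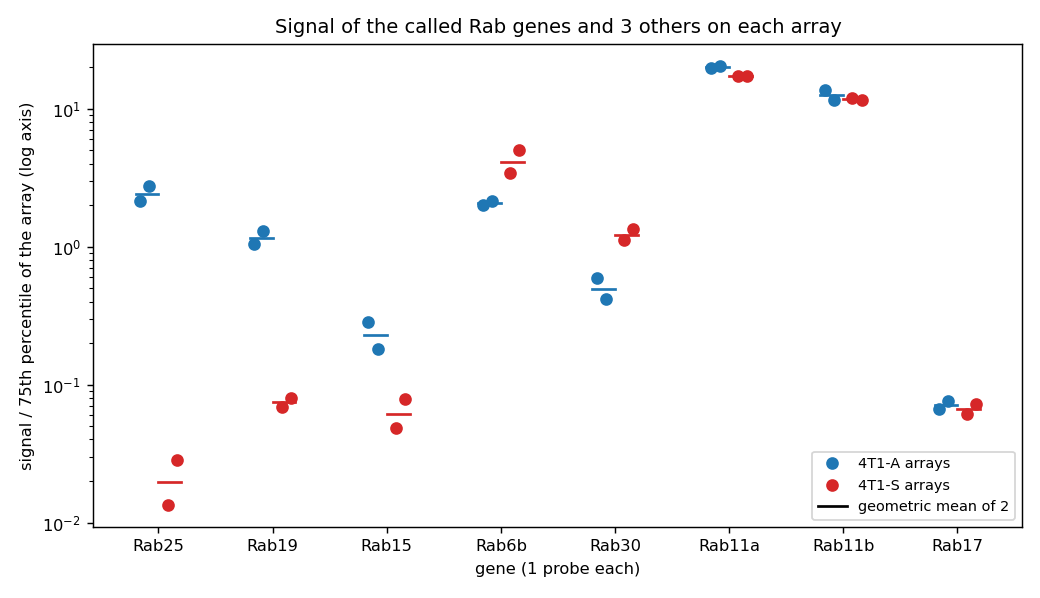
The level of each gene's brightest probe on each array, as processed signal over the array's 75th percentile on a log axis, for the 5 called Rab genes and for Rab11a, Rab11b and Rab17. Points are single arrays and bars the geometric mean of the 2 arrays of a sub-line. The points of Rab25 fall from 2.16 and 2.73 to 0.0134 and 0.0284, whereas those of Rab11b overlap.

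The other members of this group cover delivery to the plasma membrane and cilium. Rab13, which acts at epithelial junctions, was at 0.154 and 0.150 in 4T1-A and at 0.231 and 0.211 in 4T1-S (0.54 ± 0.18). Its arrays did not overlap, and it was not called. Rab8a (0.22 ± 0.22) and Rab8b (0.14 ± 0.19), which carry membrane to protrusions and cilia, were not called. Rab10 (0.25 ± 0.20) and Rab14 (0.23 ± 0.21), which serve basolateral and endosomal delivery, and Rab35 (-0.14 ± 0.18), a regulator of fast recycling, were not called either.

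The 12 tested genes of the endoplasmic reticulum (ER) and Golgi held 3 of the 5 calls, 2 higher and 1 lower, with a median difference of 0.12. Rab19, a Golgi-associated member, was at 1.04 and 1.29 in 4T1-A and at 0.0691 and 0.0798 in 4T1-S. All 4 values were well above background, but those of 4T1-S were near the lowest signals so flagged on its arrays (0.0596 and 0.0550). The difference was -3.97 ± 0.20, or 15.6-fold lower in 4T1-S. It ran from -4.26 to -2.43 over other settings of the processing.

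Rab30, which is found on the Golgi, was at 0.588 and 0.421 in 4T1-A and at 1.11 and 1.34 in 4T1-S. The difference was 1.29 ± 0.23, or 2.45-fold, and the arrays did not overlap. The call of Rab30 was lost when either 4T1-S array was left out, replicate 1 (1.42) or replicate 2 (1.16), with scaling to the median of the array (1.0), and with no filter on background.

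Rab6b, a relative of the Golgi protein Rab6 that is best known from neurons, was at 2.02 and 2.14 in 4T1-A and at 3.43 and 4.99 in 4T1-S. The difference was 1.0 ± 0.23, or 1.99-fold. A second probe for Rab6b was at 0.674 and 0.767 in 4T1-A and at 1.70 and 1.94 in 4T1-S, a difference of 1.34. Neither probe's arrays overlapped. The call of Rab6b was lost in 8 of 15 other settings, among them those without 4T1-S replicate 1 (1.27) or 4T1-S replicate 2 (0.73) and with scaling to the median (0.71).

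Rab6 itself, which is named Rab6a in RefSeq and moves membrane back from the Golgi, was at 9.41 and 15.0 in 4T1-A and at 13.6 and 13.5 in 4T1-S. Its difference was 0.19 ± 0.25 and its arrays overlapped. A similar pair is Rab2, named Rab2a in RefSeq, and Rab2b, which act between the ER and the Golgi. Rab2 was at 25.9 and 22.2 in 4T1-A and at 28.0 and 24.4 in 4T1-S (0.13 ± 0.20). Rab2b was at 1.93 and 2.53 in 4T1-A and at 3.59 and 4.19 in 4T1-S (0.81 ± 0.21). Among the genes not called, Rab2b had the highest difference, and its arrays did not overlap.

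Rab1, named Rab1a in RefSeq and required for transport from the ER, was at 51.3 and 56.9 in 4T1-A and at 46.5 and 50.3 in 4T1-S (-0.16 ± 0.19). Its near relative Rab1b differed by -0.30 ± 0.19. Rab34, which positions lysosomes and takes part in forming cilia, was at 48.8 and 46.5 in 4T1-A and at 49.6 and 53.1 in 4T1-S (0.11 ± 0.18). Rab33b, which acts in the Golgi and in autophagosome formation, was at 0.192 and 0.156 in 4T1-A and at 0.118 and 0.129 in 4T1-S (-0.49 ± 0.20). Neither Rab34 nor Rab33b had overlapping arrays, and neither was called. Rab18, of the ER and lipid droplets, was at 15.3 and 20.0 in 4T1-A and at 15.4 and 20.1 in 4T1-S (0.01 ± 0.23).

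None of the 9 early endosome genes was called, and their differences ran from -0.44 to 0.69 with a median of -0.04. The 3 isoforms of Rab5, which drives fusion of early endosomes, had differences of -0.04 ± 0.19 (Rab5a), 0.14 ± 0.25 (Rab5b) and 0.02 ± 0.21 (Rab5c). All 3 had overlapping arrays. Rab20, which acts on endosomes and phagosomes, was at 0.185 on both 4T1-A arrays and at 0.297 and 0.300 in 4T1-S (0.69 ± 0.18). Rab4a, a regulator of fast recycling, was at 0.766 and 0.859 in 4T1-A and at 1.04 and 1.40 in 4T1-S (0.57 ± 0.21), whereas its relative Rab4b differed by -0.06 ± 0.21. Rab21, which carries integrins, was at 2.42 and 2.81 in 4T1-A and at 1.80 and 2.03 in 4T1-S (-0.44 ± 0.19). The arrays of Rab20, Rab4a and Rab21 did not overlap.

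The 6 tested genes of late endosomes and lysosomes ran from -0.71 to 0.21, with a median of -0.10, and none was called. Rab32, a member of lysosome-related organelles, was at 1.11 and 0.691 in 4T1-A and at 0.490 and 0.585 in 4T1-S (-0.71 ± 0.26). The 4T1-A arrays of Rab32 were 0.68 apart on the log2 scale, almost as far as the sub-lines. Rab7, which directs late endosomes to lysosomes, was at 7.19 and 7.55 in 4T1-A and at 6.65 and 8.72 in 4T1-S (0.05 ± 0.21). Rab9, which returns receptors from late endosomes to the Golgi, differed by 0.21 ± 0.18, and Rab7l1, named Rab29 in RefSeq, by 0.06 ± 0.27.

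The 5 tested genes of regulated secretion ran from -0.45 to 0.49, with a median of -0.08, and none was called. Rab27a, which docks secretory lysosomes and exosome-releasing endosomes at the plasma membrane, was at 0.449 and 0.472 in 4T1-A and at 0.555 and 0.577 in 4T1-S (0.30 ± 0.18). Its relative Rab27b was well above background on none of the arrays. Rab37, a granule protein, differed by 0.49 ± 0.19 and Rab26 by -0.45 ± 0.29. Rab3a and Rab3d, which prime granules for release, differed by -0.14 ± 0.28 and -0.08 ± 0.31.

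Of the 4 remaining genes, with roles at cilia or in ubiquitin ligases, 0 were called. Rab23, a negative regulator of Hedgehog signalling, was at 8.43 and 7.45 in 4T1-A and at 6.11 and 6.47 in 4T1-S (-0.33 ± 0.19). Rab28 differed by 0.35 ± 0.37, and its 4T1-A arrays were 1.24 apart on the log2 scale. Rab40b and Rab40c differed by 0.10 ± 0.18 and -0.06 ± 0.19.

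In all, the differences of 37 of the 42 genes not called were smaller than 0.5 in size, and those of 29 were smaller than 0.25. The median gap between the 2 arrays of a sub-line was 0.21 for these 47 genes in 4T1-A and 0.13 in 4T1-S. The arrays of the sub-lines did not overlap for 27 of the 47, 15 higher and 12 lower in 4T1-S, beside 59.0% of all genes tested. Without 4T1-A replicate 2, 3 more Rab genes were called: Rab2b (1.01), Rab28 (0.97) and Rab32 (-1.05). The 8 genes not tested were Rab3b, Rab3c, Rab9b, Rab27b, Rab36, Rab38, Rab39 and Rab39b. Of these, 6 were not well above background on any array, and Rab3b and Rab9b were so on 1 of the 4T1-S arrays only.

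Probes of the same gene gave a further view of how firm the values are. Rab25, Rab19, Rab15 and Rab30 each had 1 probe, so their values have no second probe beside them. With every probe tested on its own, limma called 6 of 77 Rab probes, 2 higher and 4 lower, and 4.58% of all 23668 probes. Over all probes 523 were higher and 562 lower. When arrays were scaled to their median, 1 Rab probe was higher and 6 lower, with probes of Rab1 and Rab1b added and that of Rab30 lost, beside 224 higher and 1162 lower over all probes. With quantile normalization the split was 2 and 3 for Rab probes, and 310 and 581 for all probes. In the main setting, without either rescaling, the call for Rab6b among the 6 Rab probes was on its second probe, and the first did not pass. The call that this probe fit added to those by gene was on a dim probe named Rab11a. No probe of Rab11a was called with quantile normalization. The dim probe was at 0.113 and 0.164 in 4T1-A and at 0.0174 and 0.0516 in 4T1-S. It was not well above background in 4T1-S, which makes it at least 2.37-fold lower. The remaining probe named Rab11a was at 3.14 and 2.67 in 4T1-A and at 2.12 and 1.98 in 4T1-S (-0.50), so the 3 probes of Rab11a all lay below 0 but differed more than 2-fold. With the mean of a gene's probes in place of the brightest, Rab11a differed by -0.97 and was called, a value that includes the dim probe.

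In 23 Rab genes at least 2 probes were tested. In 12 of these genes all tested probes had the same sign, and in 11 they had both. The median gap between a gene's lowest and highest probe was 0.34. The brightest probe gave the highest difference in 16 genes and the lowest in 5.

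The genes with both signs had small differences on their brightest probe, between -0.33 and 0.25. A second probe of Rab7 was at 4.56 and 5.07 in 4T1-A and at 3.30 and 3.39 in 4T1-S (-0.52), with arrays that did not overlap, against 0.05 for the first. Rab10 was at 9.78 and 12.0 in 4T1-A and at 12.8 and 13.0 in 4T1-S on its brightest probe. Another of its probes was at 4.04 and 1.91 in 4T1-A and at 1.76 and 1.86 in 4T1-S (-0.62), where the first 4T1-A array stood apart.

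Rab14 was at 7.94 and 5.97 in 4T1-A and at 8.07 and 8.04 in 4T1-S on its brightest probe. A dimmer probe of Rab14 was at 0.319 and 0.124 in 4T1-A and at 0.243 and 0.0657 in 4T1-S (-0.65), high on the first array and low on the second in both sub-lines. Rab6 had a second probe at 0.276 and 0.254 in 4T1-A and at 0.250 and 0.177 in 4T1-S (-0.33). Its arrays did not overlap, and its sign was opposite to that of the first.

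Rab8b was at 0.430 and 0.381 in 4T1-A and at 0.461 and 0.431 in 4T1-S, and its second probe at 0.434 and 0.249 and at 0.380 and 0.201 (-0.25). Rab22a was at 2.42 and 2.96 in 4T1-A and at 2.41 and 2.52 in 4T1-S (-0.12), and its other probes gave 0.10 and 0.23. Rab5b was at 0.118 and 0.0750 in 4T1-A and at 0.108 and 0.101 in 4T1-S, and its other probes gave 0.15 and -0.20. Of these 3 genes, the brightest probes of Rab22a and Rab5b had overlapping arrays.

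The second probe of Rab2 gave -0.14, that of Rab11b 0.10 and that of Rab18 -0.18. The other probes of Rab23 gave -0.23 and 0.09. For the members with both signs, the direction therefore rests on which probe is read.

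**Figure D3:**
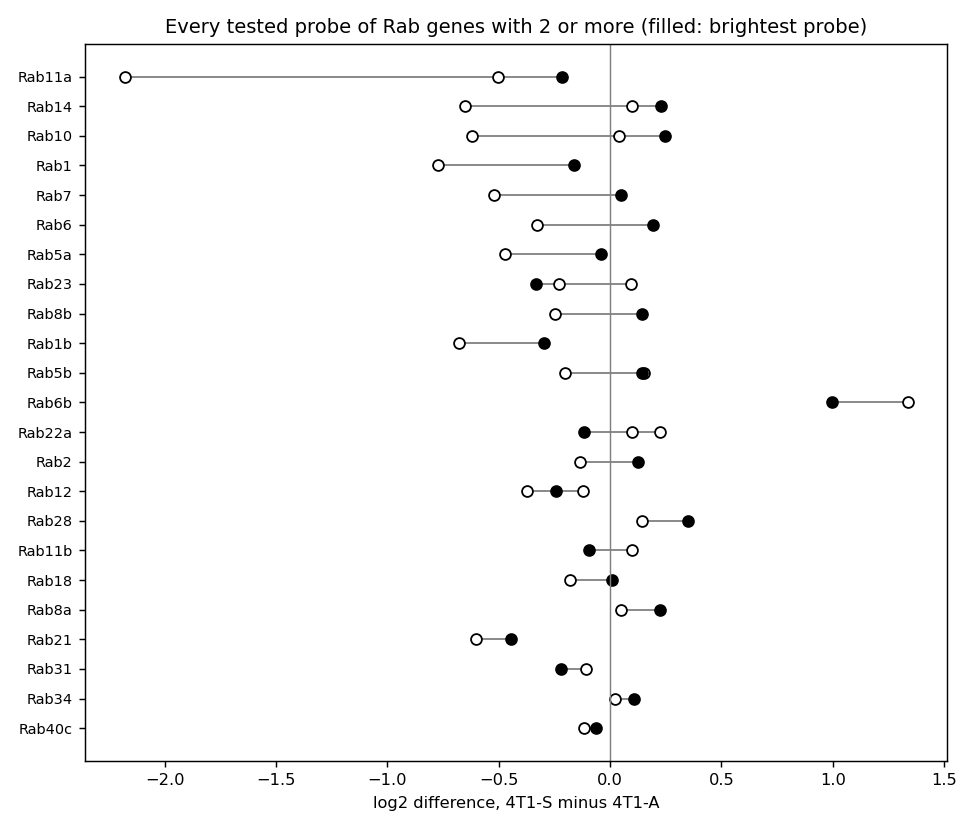
Each row is 1 of the 23 Rab genes with at least 2 tested probes, the horizontal axis is the log2 difference, 4T1-S minus 4T1-A, and each point is a probe. Filled points are the brightest probe of a gene, and lines join the probes of a gene. Rab11a has the widest range, from -2.18 to -0.21, and both probes of Rab6b lie to the right, at 1.0 and 1.34. The Rab11a probe at -2.18 was not well above background in 4T1-S, so its place shows the measured values and not a bound.

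The proteins that load, unload, carry and read Rab GTPases were listed apart from the family, as 133 genes on the array. Of 119 tested, limma called 4 higher and 3 lower, beside the 6.87% of all genes given above, and 112 did not pass. With scaling to the median the split was 1 higher and 6 lower. The median difference was 0.08. No member of the membrane cycle was called among 12 tested, a group that includes Gdi2 (-0.31), which extracts Rab proteins from membranes, and Rabggta (0.36) and Rabggtb (-0.31), the subunits of the enzyme that attaches their lipid tails.

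Among 48 tested effectors, 0 were called higher and 2 lower. Both are myosin V heavy chains, the actin motors that Rab11 proteins and their relatives recruit. Myo5b was at 0.674 and 0.499 in 4T1-A and at 0.134 and 0.117 in 4T1-S, a difference of -2.21 ± 0.22. Myo5c was at 0.194 and 0.310 in 4T1-A and at 0.0121 and 0.0116 in 4T1-S. Neither 4T1-S value was well above background, so Myo5c was at least 4.28-fold lower. Myo5a, the other heavy chain, was at 2.74 and 2.05 in 4T1-A and at 2.21 and 3.01 in 4T1-S (0.12) and was not called.

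The Rab11 family interacting proteins, some of which link Rab11 proteins to motors, were not called. Their differences were 0.53 for Rab11fip1, 0.10 for Rab11fip2, 0.10 for Rab11fip3, 0.48 for Rab11fip4 and -0.22 for Rab11fip5. The arrays of Rab11fip1, Rab11fip4 and Rab11fip5 did not overlap.

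Of 32 tested exchange factors, 3 were called higher and 1 lower. The lower one was Dennd2a, a protein with a DENN domain that acts on Rab9, at 0.278 and 0.337 in 4T1-A and at 0.0223 and 0.0186 in 4T1-S. It was not well above background in 4T1-S and was at least 5.34-fold lower. St5, another DENN protein, was at 0.231 and 0.352 in 4T1-A and at 0.690 and 0.666 in 4T1-S (1.25). Dennd1a, an exchange factor for Rab35, was at 1.23 and 1.21 in 4T1-A and at 1.98 and 2.44 in 4T1-S (0.85). Rab3gap1, a subunit of a complex that inactivates Rab3 and loads Rab18, was at 0.237 and 0.280 in 4T1-A and at 0.535 and 0.483 in 4T1-S (0.98). In none of these 4 genes did the arrays overlap.

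Of 27 tested GTPase-activating proteins, 1 was called higher and 0 lower. That gene was Grtp1, a TBC-domain protein, at 0.201 and 0.337 in 4T1-A and at 0.683 and 0.826 in 4T1-S (1.53). The calls of Grtp1, St5, Rab3gap1 and Dennd1a were each lost when either array of 4T1-S was left out, and also when no filter on background was set. St5, Rab3gap1 and Dennd1a also lost their calls with scaling to the median, and St5 with the mean of its probes. Dennd1a lost its call in 9 of 15 other settings. The calls of Myo5b, Myo5c and Dennd2a were held in every other setting in which they were tested. Over these settings the difference ran from -4.76 to -1.35 for Myo5c and from -4.30 to -1.24 for Dennd2a. The smallest of these falls are under the bounds, which were computed in the main setting.

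**Figure D4:**
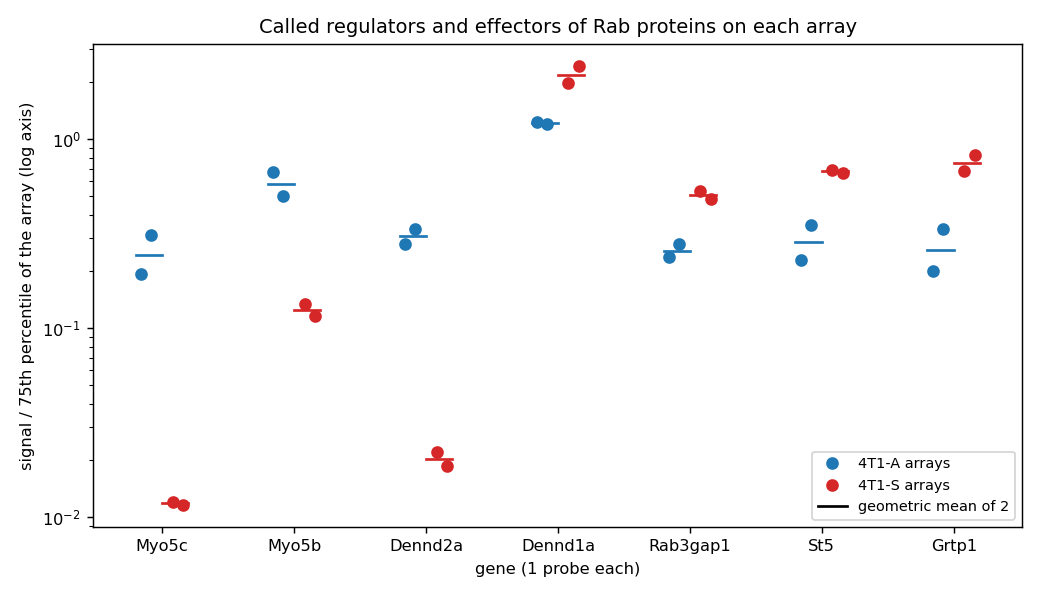
The level of the 7 called regulators and effectors of Rab proteins on each array, as processed signal over the array's 75th percentile on a log axis. Points are single arrays and bars the geometric mean of the 2 arrays of a sub-line. Myo5c, Myo5b and Dennd2a are lower on both 4T1-S arrays, and the other 4 genes are higher on both. The 4T1-S points of Myo5c and Dennd2a were not well above background, so they show the measured values and not a bound.

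Rab25 and Rab19 were also set beside the 3 protein-coding genes on either side of each in the order of RefSeq's annotation. Around Rab25, Sema4a, which encodes a semaphorin, was not well above background in 4T1-A and was called higher in 4T1-S, at least 1.81-fold. Lmna (0.06), which encodes lamin A, Ubqln4 (0.20) and Ssr2 (-0.06) were not called, and Mex3a and Lamtor2 had no probe by that name. Around Rab19, Dennd2a, described above, was lower in 4T1-S as well, by at least 5.34-fold. Mkrn1, a ubiquitin ligase that lies between Rab19 and Dennd2a, was at 4.11 and 4.81 in 4T1-A and at 4.53 and 3.99 in 4T1-S (-0.06 ± 0.19). Parp12 (0.53), Slc37a3 (-0.25) and Adck2 (0.28) were not called, and Kdm7a had no probe by that name.

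**Figure D5:**
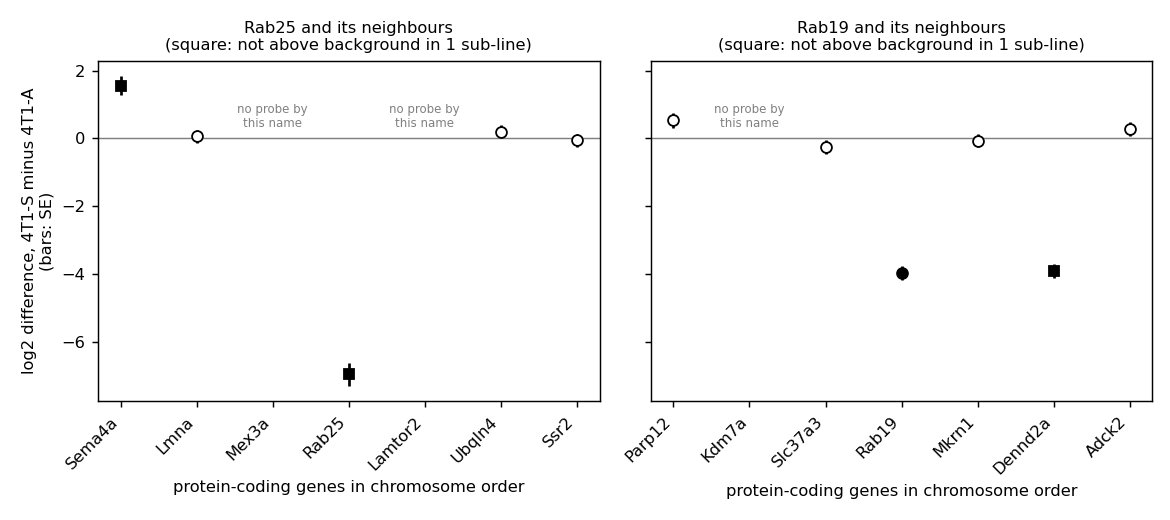
The log2 difference, 4T1-S minus 4T1-A, of Rab25 (left) and Rab19 (right) and of the 3 protein-coding genes on either side, in chromosome order and not to scale in distance. Points are the differences, bars the SE with n = 2 arrays per sub-line, filled points the genes called, and squares genes not above background in 1 sub-line (Rab25, Dennd2a and Sema4a), whose place shows the measured values and for which the text gives bounds. Mkrn1, at -0.06, lies between Rab19 at -3.97 and Dennd2a.

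Markers of other cell types were low. Summed signals of 10 leukocyte genes lay between 1.08 and 1.14 times the 75th percentile on the 4 arrays, and none of the 6 tested was called. Much of this sum was Cd68, at 0.533 and 0.605 in 4T1-A and at 0.387 and 0.313 in 4T1-S (-0.70). Of the 6 tested, 4 were measured higher and 2 lower, with a median difference of 0.44. Summed signals of 9 fibroblast genes were 0.742 and 0.970 on the 4T1-A arrays and 1.47 and 1.42 on those of 4T1-S, with Col1a1 called higher among 4 tested. Col1a1 was not well above background in 4T1-A, so it is given as at least 2.59-fold higher. Much of the fibroblast sum was Pdgfra, at 0.324 and 0.529 in 4T1-A and at 0.780 and 0.758 in 4T1-S (0.89), which was not called. For 6 endothelial genes the sums were 0.162 and 0.178 on the 4T1-A arrays and 0.330 and 0.249 on those of 4T1-S. The 1 tested was not called. The part of these markers, and of the lower epithelial markers Cdh1, Cldn4, Cldn7 and Krt19, in the differences of the Rab genes was not tested.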

How the data were processed

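Spot intensity values were extracted by the authors with Agilent Feature Extraction 9.1, per the file headers. The same tool stands in the submitters' processing notes. The processed intensity is background-subtracted and detrended within the array, with surrogates for low signals, per the file headers. The flags for background, saturation and outliers are also the deposited ones. The values of the deposited series table match a linear ratio of processed intensity to the array's 75th percentile, and no header gives its scale or centring. Its column medians were 0.078 and 0.076 for 4T1-A and 0.098 and 0.091 for 4T1-S, and it was used only as an alternative. The deposited file of 4T1-A replicate 1 is rounded, and 80.8% of its table values lay within 0.0011 of that ratio.

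The processed intensity was taken to log2, and the 75th percentile of each array was subtracted on that scale. Between 5 and 9 outlier spots per array were left out, which removed 22 probes, and spots of a probe were averaged. At most 1 spot per array was saturated. Gene names are those of the file of 4T1-S replicate 2, because some names in that of 4T1-A replicate 1 had been rewritten as dates. Of 103 Rab probes, 84 matched a RefSeq transcript of GRCm38.p6, each with the gene of its name, and the rest kept the file's name. Probe sequences were not used here, so probes that also bind a relative were not tested for.

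Limma 3.58.1 in R 4.3.3 (lmFit, then eBayes, 2-sided) was fitted with 1 row per gene name. Its residual degrees of freedom were 2 and its prior ones 5.70. For a bound, each array of the dimmer group was given the lowest signal that was well above background on it, or the probe's own where that was higher, and the brighter group's mean was set against theirs, with no allowance for spread. A spot brighter than that lowest signal can still fail the flag, as Rab3c did in 4T1-S at 0.0770 and 0.0682. A bound is therefore not a strict minimum. The number of arrays limits the precision.

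The members, role lists, marker lists and tests were chosen with earlier results of these data known. Level per array is given for Rab genes that were called, above background in 1 sub-line only, among the 5 largest measured differences in each direction or the 3 brightest, or with probes that differed in sign or by over 2-fold, and for called regulators and effectors. Others, such as Rab11b, Rab13, Rab17, Rab27a and Myo5a, were added for their roles after their values were seen. Alternatives were the background correction (normexp with an offset of 50), scaling, filter, choice of probe, outlier spots, variance model, replicate block and each array left out. The offset shrinks the log2 differences of dim signals, and so can weaken the low ends of the ranges given.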

Additional observations from a re-analysis of the deposited data

How the results depend on the processing

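All 5 called Rab genes kept their direction in every alternative in which they were tested, and Rab25 (-7.50 to -3.61) and Rab19 (-4.26 to -2.43) were called in all of them. Of the 42 not called, 16 kept their sign in every alternative and 7 were called in at least 1. The count of genes called was 514 with normexp, 738 with quantile normalization, 261 with no filter on background and 612 with genes above background on all 4 arrays, and with 1 array left out it ran from 311 (4T1-S replicate 2 left out) over 358 (4T1-S replicate 1) to 2445 (4T1-A replicate 2). The count of Rab genes called was 3 with normexp, 3 with scaling to the median, 2 with no filter and 2 above background on all 4 arrays, and with 1 array left out it was between 2 (4T1-S replicate 1) and 8 (4T1-A replicate 2), and 3 without 4T1-S replicate 2. That of regulators and effectors was 3 with no filter and 4 above background on all 4 arrays, and with 1 array left out 3 (4T1-S replicate 2) to 12 (4T1-A replicate 2), with 4 for 4T1-S replicate 1. Probes called numbered 302 with no filter, 584 above background on all 4 arrays and 450 to 2293 with 1 array left out, and Rab probes called under the same settings 2, 3 and 3 to 12. A sub-line with 1 array left is assumed to vary like the other. With no filter more genes are tested, and with the filter on all 4 arrays Rab25 and Rab15 are not; for the other shifts the cause was not tested. Replicate numbers are shared by the sub-lines. The differences between replicates 1 and 2 correlated between the sub-lines (r = 0.42 over 16275 genes, which are not independent replicates). The labels do not say whether the numbers pair arrays, and what lies behind this correlation was not tested. The main fit sets no pairs. With a replicate block 3707 genes, 9 Rab genes and 20 regulators and effectors were called. The split was then 6 higher and 3 lower for Rab genes, and 2528 and 1179 for all genes. The Rab genes added were Rab13, Rab20, Rab2b and Rab4a, all higher in 4T1-S. Signal near background limits, among others, Rab25 and Rab19 in 4T1-S, Rab15, Rab17, Rab26 and Rab40b, and the 8 genes not tested.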
